A study of Mus musculus with 10 samples.

Results

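The 7 tetraspanin transcripts *Cd9*, *Cd37*, *Cd53*, *Cd63*, *Cd81*, *Cd82* and *Cd151* were followed in mouse microglia taken from adult brain, from brain slice culture and from in vitro mixed glial culture. The members were taken by name, and all 7 were among the 18292 gene symbols of the single cell tables and among the 12157 genes that were tested. Microglia came from adult C57BL/6 brain, from brain slices of C57BL/6 pups kept in culture for 1 day, 1 week or 3 weeks, and from neonatal C57BL/6 cortex grown as mixed glia for 3 weeks, whose microglia were collected from the medium. No label names a transgene or a stimulus for these groups. By the methods, human PDGF was added to the slice medium at each change and is not listed for the mixed glial medium, so the growth factor and the culture system cannot be told apart. Cells of all groups were sorted as live, CD11b high and CD45 intermediate, and their transcripts were tagged at the 3' end with unique molecular identifiers (UMIs), so that each captured molecule was counted once. Each of the 5 groups held 2 libraries. Adult brain and slices were homogenized and passed over a density gradient while the floating in vitro cells were not stated to be, several slices were pooled where needed, and the cultured material was neonatal at the start, so age, culture and isolation cannot be told apart in any comparison with adult microglia.

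Tetraspanins are small proteins that cross the membrane repeatedly and gather integrins, immunoglobulin superfamily proteins, proteases and each other into membrane microdomains. CD9, CD81 and CD151 sit mainly at the cell surface, where CD9 and CD81 bind the partners IGSF8 and PTGFRN and CD151 binds laminin-binding integrins. CD37, CD53 and CD82 are prominent on leukocytes, CD37 and CD53 being largely restricted to them. CD63 resides in late endosomes and lysosomes and is sorted into the vesicles that become exosomes. In microglia, *Cd81* is known as a transcript of the resting brain cell, whereas *Cd9* and *Cd63* are known from microglia that respond to damage, plaques or myelin debris.

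After filtering, 19059 cells were kept, between 61 and 3799 per library, with totals of 385373 to 39689540 UMIs and median depths of 1858 to 13966 UMIs per cell. Both slice 1 week libraries were small (148 and 61 cells). Microglia markers were present in every library, with a summed level of 32333 and 32508 UMIs per 1000000 (CPM) in adult libraries, 2743 and 3394 in in vitro libraries and 2794 to 10053 in slice libraries, and none of the 10 was at 0. Neutrophil markers were near 0 in adult, in vitro and slice 3 weeks libraries (1.16 to 8.39 CPM), but reached 7660 and 22049 in slice 1 day and 39524 and 955 in slice 1 week. A monocyte list stood at 154 and 363 in slice 1 day and at 850 and 0 in slice 1 week, against at most 7.10 in the adult, in vitro and slice 3 weeks libraries. A perivascular macrophage list reached 2233 and 2104 in the in vitro libraries against at most 288 in the slice libraries. Red cell markers stood at 1846 in adult replicate 1 and 3460 in slice 1 day replicate 1 and at 1.02 or less elsewhere. By their labels, replicate 1 of adult and replicate 1 of slice 3 weeks bear another study number than the remaining 8 libraries. The part of these other cell types in the differences below was not tested except where values without the neutrophil-marked cells are given.

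The 7 transcripts did not move together. Relative to adult microglia, *Cd63* was higher in each of the 4 cultured groups, whereas *Cd81*, *Cd9*, *Cd37*, *Cd53*, *Cd82* and *Cd151* were lower in vitro and in slices at 1 day and at 1 week. By 3 weeks in slices *Cd9* and *Cd151* were not called against adult, *Cd81* and *Cd37* were above their levels at 1 day, and the *Cd63* libraries overlapped those in vitro. The 4 comparisons with adult share the same 2 adult libraries. At 3 weeks the 2 culture systems thus had like levels of *Cd63*, while *Cd81* and *Cd9* were higher in slices than in vitro.

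Levels are given in CPM with library sizes scaled by trimmed mean of M-values (TMM) factors, and the surface organizers come first. *Cd81*, which encodes a partner of IGSF8 and integrins, stood at 5371 and 6573 in the 2 adult libraries, 585 and 490 in vitro, 1095 and 889 in slices of 1 day, 1394 and 1566 in slices of 1 week, and 4139 and 3747 in slices of 3 weeks. No library of one group overlapped another, and the order of the group means ran from in vitro through slice 1 day, slice 1 week and slice 3 weeks to adult. *Cd9*, whose protein regulates fusion and adhesion, stood at 2366 and 2523 in adult, 345 and 439 in vitro, 1207 and 1132 in slices of 1 day, 1323 and 1469 in slices of 1 week, and 2862 and 3031 in slices of 3 weeks. Here both slice 3 weeks libraries lay above both adult libraries. *Cd151*, the integrin partner, was the lowest of the 3, at 104 and 101 in adult, 50.1 and 55.6 in vitro, 60.02 and 59.04 in slices of 1 day, 47.4 and 28.1 in slices of 1 week, and 106 and 97.1 in slices of 3 weeks. Adult and slice 3 weeks libraries overlapped for this gene, and its slice 1 week values rest on as few as 11 UMIs.

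Among the leukocyte tetraspanins, *Cd53* was the most abundant by UMI count. *Cd53* stood at 1392 and 1511 in adult, 557 and 547 in vitro, 751 and 724 in slices of 1 day, 770 and 681 in slices of 1 week, and 872 and 899 in slices of 3 weeks. The 4 slice libraries of 1 day and 1 week overlapped, and every adult library was above every cultured library. *Cd37* stood at 544 and 436 in adult, 132 and 138 in vitro, 109 and 92.6 in slices of 1 day, 238 and 197 in slices of 1 week, and 389 and 262 in slices of 3 weeks, so its lowest level was at 1 day in slices rather than in vitro. *Cd82*, known as a suppressor of cell motility, stood at 222 and 196 in adult, 61.0 and 44.7 in vitro, 46.9 and 34.6 in slices of 1 day, 63.2 and 66.5 in slices of 1 week, and 80.8 and 65.4 in slices of 3 weeks. In vitro and slice 1 day libraries overlapped for *Cd82*, as did slice 1 week and slice 3 weeks libraries, and all 8 cultured libraries were below both adult libraries.

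*Cd63*, the endosomal member, had its lowest level in adult microglia. It stood at 787 and 846 in adult, 2632 and 2886 in vitro, 1608 and 1629 in slices of 1 day, 1897 and 2195 in slices of 1 week, and 2903 and 2695 in slices of 3 weeks. The adult libraries were below all 8 cultured libraries, and in vitro and slice 3 weeks libraries overlapped. In the plot of levels by library, *Cd63* and *Cd81* are opposite between adult and in vitro, while both are higher in slices at 3 weeks than at 1 day.

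**Figure D1:**
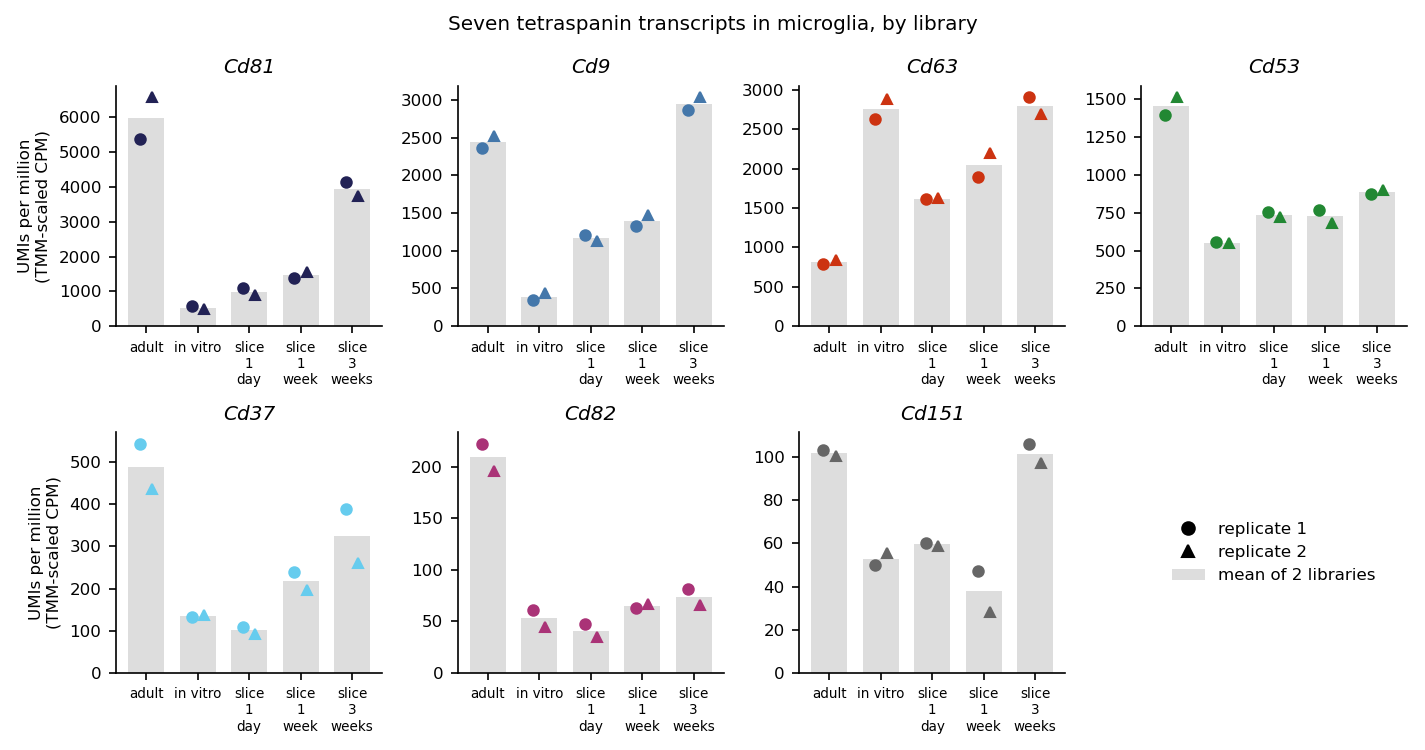
Level of each of the 7 transcripts in UMIs per 1000000 (CPM, linear axis from 0, TMM-scaled), in 2 libraries per group; circles and triangles are replicates 1 and 2 and grey bars the mean of both. *Cd63* is lowest in adult (787 and 846), *Cd81* is lowest in vitro (585 and 490), and *Cd9* is at 345 and 439 in vitro and at 2862 and 3031 in slices at 3 weeks.

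The genes lie on separate loci of build GRCm38 (GENCODE vM21), with *Cd81* at chr7:143052739-143067934, *Cd151* at chr7:141467392-141471473 and *Cd63* at chr10:128900989-128912822 on the plus strand and *Cd9* at chr6:125460266-125494791, *Cd37* at chr7:45233632-45239115, *Cd53* at chr3:106759921-106790149 and *Cd82* at chr2:93419111-93463140 on the minus strand. *Cd81*, *Cd151* and *Cd37* share a chromosome. Each of *Cd9*, *Cd37*, *Cd81*, *Cd82* and *Cd151* overlaps an annotated gene on the other strand, and whether the counting used strand is not given in the sources used here. *Cd82* also overlaps *Mir7001* on its own strand. The windows before the RefSeq starts of 4 members are shown because they contrast the transcript that rose in every cultured group (*Cd63*) with 3 that fell in vitro (*Cd81*, *Cd9* and *Cd53*). Each sequence is the 219 bases that end 32 bases before the RefSeq start (build GRCm38.p6), on the strand of the gene, 5′ to 3′. The *Cd63* window lies within the GENCODE interval of *Cd63* given above, since the GENCODE gene starts further upstream than the RefSeq start used here. Capitals mark GGGCGG (the core of a GC box) or GAGGAA (the core of a PU.1 site, the factor that specifies myeloid cells), searched on both strands.
Cd63, chr10:128909095-128909313, plus strand: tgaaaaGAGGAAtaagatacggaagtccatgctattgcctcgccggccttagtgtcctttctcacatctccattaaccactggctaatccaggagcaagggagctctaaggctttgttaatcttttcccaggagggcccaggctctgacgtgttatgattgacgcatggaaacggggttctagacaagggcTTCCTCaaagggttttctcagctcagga
Cd81, chr7:143052500-143052718, plus strand: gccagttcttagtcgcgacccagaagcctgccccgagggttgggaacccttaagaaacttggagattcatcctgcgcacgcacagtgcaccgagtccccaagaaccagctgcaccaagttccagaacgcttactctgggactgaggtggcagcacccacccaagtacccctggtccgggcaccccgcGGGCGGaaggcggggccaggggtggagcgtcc
Cd9, chr6:125494792-125495010, minus strand: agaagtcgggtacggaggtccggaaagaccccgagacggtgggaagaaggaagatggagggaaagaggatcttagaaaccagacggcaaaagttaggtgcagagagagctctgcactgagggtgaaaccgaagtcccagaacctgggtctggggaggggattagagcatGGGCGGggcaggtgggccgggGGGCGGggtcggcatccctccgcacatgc
Cd53, chr3:106790181-106790399, minus strand: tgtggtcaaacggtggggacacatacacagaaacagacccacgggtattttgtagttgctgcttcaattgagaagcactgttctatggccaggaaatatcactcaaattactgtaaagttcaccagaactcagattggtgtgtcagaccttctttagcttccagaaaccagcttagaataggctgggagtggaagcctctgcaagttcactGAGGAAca

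The *Cd63* window held 2 matches to the PU.1 core and none to the GC box, at a G and C content of 49.3%. *Cd81* held 1 GC box and *Cd9* held 2, and neither held the PU.1 core, at G and C contents of 63.9% and 61.2%. *Cd53*, which fell in vitro, held 1 PU.1 core and no GC box at 45.2%, as *Cd63* did in kind. These letters thus did not divide the 4 members shown by direction. Of 32851 RefSeq promoter windows cut to the same length, 28.3% held the GC box and 20.3% the PU.1 core. An E-box (CACGTG, in 4.97% of all windows) and a TATA box (TATAAA, in 9.92%) were searched as well. None of the 4 windows shown held either. All windows stop short of the RefSeq start, and the bases between were not searched. A TATA box in that stretch could not be found, so these promoters are not shown to lack one. A match is a match of letters and was not tested as a binding site.

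In vitro microglia were compared with adult microglia to ask how far the usual culture model departs from the brain cell. A gene was called when edgeR's quasi-likelihood test gave an adjusted p under 0.05 over all genes tested and the fold change passed 1.5. All 7 members were called, 1 higher and 6 lower, where 22.4% of all genes tested were called higher and 28.5% lower. *Cd81* fell by 3.47 on the log2 scale (SE 0.19, adjusted p = 2.73e-07), which puts the adult level 11.1 times above the in vitro level. *Cd9* fell by 2.64 (SE 0.16, adjusted p = 6.01e-07), and both in vitro libraries were below all 8 others for this gene. *Cd82* fell by 1.99, *Cd37* by 1.86, *Cd53* by 1.40 and *Cd151* by 0.95, with adjusted p from 1.35e-05 to 4.98e-04. *Cd63* rose by 1.76 (SE 0.14, adjusted p = 4.27e-06), a 3.38-fold higher level. The median of the 7 was -1.86 on the log2 scale, beside a median of -0.11 over all genes tested.

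The same 7 transcripts were called in slices at 1 day and at 1 week against adult, again 1 higher and 6 lower. At 1 day, where 24.9% of all genes tested were called higher and 25.3% lower, *Cd63* was up by 0.99 (SE 0.14, adjusted p = 2.35e-04) and *Cd81* fell by 2.59 (SE 0.18, adjusted p = 2.84e-06). *Cd82* (-2.37) and *Cd37* (-2.28) were further below adult at this time than *Cd9* (-1.06) or *Cd53* (-0.98). *Cd151* fell by 0.78 (adjusted p = 0.00216). At 1 week, where 15.0% were called higher and 13.6% lower, *Cd63* was up by 1.32 (SE 0.14, adjusted p = 1.19e-04) and *Cd81* was down, at -2.01 (SE 0.18, adjusted p = 3.94e-05). *Cd9* at 1 week, at -0.81 (SE 0.16, adjusted p = 0.00343), was not called without slice 1 week replicate 1, where it was -0.71 (adjusted p = 0.0551).

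Slices at 3 weeks, the latest slice time, were compared with adult microglia to ask how near the longest slice culture came to the brain cell. Here 5 members were called, 1 higher and 4 lower, beside 17.9% of all genes tested called higher and 17.5% lower. *Cd63* was up by 1.78 (SE 0.14, adjusted p = 1.39e-05) and was called in all 24 alternative analyses. *Cd82* fell by 1.52 (SE 0.20, adjusted p = 2.36e-04) and *Cd53* by 0.71 (SE 0.13, adjusted p = 0.00212). The difference of *Cd81*, -0.60 (SE 0.17, adjusted p = 0.0186), and that of *Cd37*, -0.59 (SE 0.20, adjusted p = 0.0406), barely passed the 1.5-fold limit, and each was called in 9 of 24 alternative analyses. Without slice 3 weeks replicate 2, for example, *Cd37* was at -0.28 (adjusted p = 0.305) and *Cd81* at -0.47 (adjusted p = 0.0974), and without adult replicate 1 *Cd37* was at -0.37 (adjusted p = 0.294). Within the 2 study labels the difference of *Cd81* was -0.38 and -0.81, that of *Cd37* -0.48 and -0.73, and that of *Cd63* 1.88 and 1.67. *Cd9* differed by 0.27 (SE 0.15, adjusted p = 0.192) and *Cd151* by -0.01 (SE 0.16, adjusted p = 0.986), and neither was called.

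**Figure D2:**
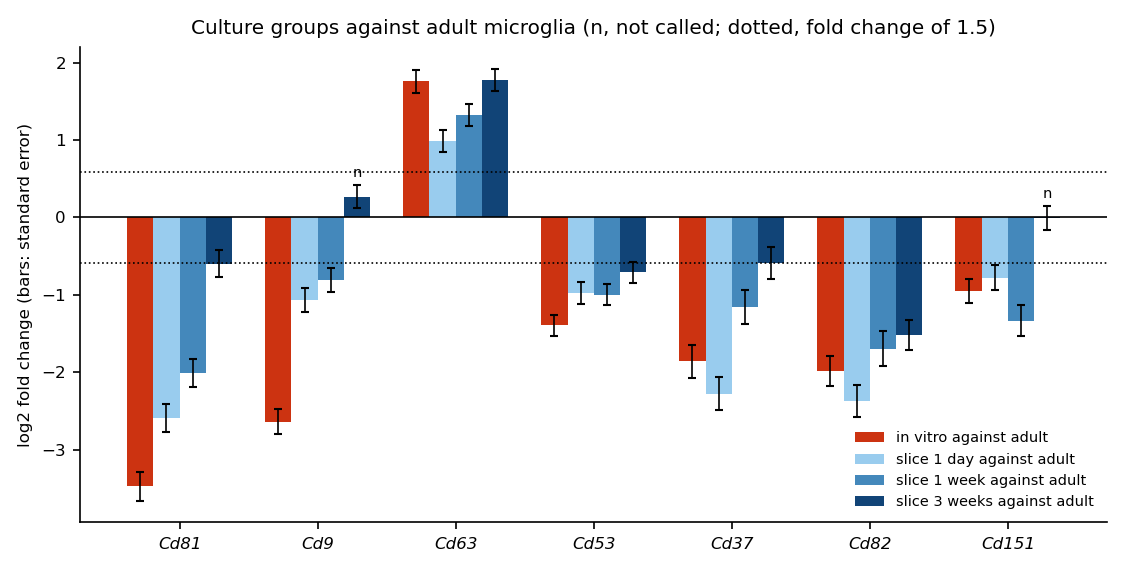
Log2 fold change of each transcript in the 4 cultured groups against adult (n = 2 libraries per group), with the standard error of the edgeR fit; n marks the 2 differences that were not called, and dotted lines mark a 1.5-fold change. *Cd63* is above 0 in all 4 comparisons (0.99 to 1.78), while *Cd81* runs from -3.47 in vitro to -0.60 in slices at 3 weeks.

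The 2 culture systems were then compared directly, at 3 weeks each. In vitro microglia had 5 members called lower and 0 higher than slice microglia, by the same edgeR test, beside 19.9% and 13.3% of all genes tested. At an unadjusted p under 0.05 the number higher was also 0, as it was by DESeq2, and *Cd63* lay close to 0 (-0.02). Counts per cell, not scaled for depth, put *Cd63* higher in vitro by 1.05 (adjusted p = 0.0172), but the median gene was then 0.97 higher and *Cd63* 0.08 above that median. *Cd9* had the largest difference, at -2.91 (SE 0.17, adjusted p = 1.19e-06), and *Cd81* was at -2.88 (SE 0.18, adjusted p = 2.62e-06). *Cd37* was at -1.27, *Cd151* at -0.94 and *Cd53* at -0.68 (adjusted p = 9.83e-04 to 0.00296). *Cd53* was not called without in vitro replicate 2 (-0.59, adjusted p = 0.061), and without the filter on low counts it was just short of the 1.5-fold limit (-0.58). *Cd63* differed by -0.02 (SE 0.14, adjusted p = 0.928) and *Cd82* by -0.47 (SE 0.20, adjusted p = 0.0827).

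Within the slice, 3 weeks was compared with 1 day to ask which transcripts moved during culture. At 3 weeks 6 members were higher and 0 lower than at 1 day, beside 13.9% and 12.8% of all genes tested, and the number lower was also 0 at an unadjusted p under 0.05 and by DESeq2. *Cd81* rose by 1.99 (SE 0.18, adjusted p = 9.60e-05), *Cd37* by 1.69 (SE 0.21, adjusted p = 4.69e-04) and *Cd9* by 1.33 (SE 0.16, adjusted p = 3.53e-04). *Cd82* rose by 0.85, *Cd63* by 0.79 and *Cd151* by 0.77 (adjusted p = 0.00271 to 0.0109). Without slice 1 day replicate 2, the library richer in neutrophil markers, *Cd82* was at 0.64 (adjusted p = 0.115) and *Cd151* at 0.77 (adjusted p = 0.0545), and neither was called. With cells thinned to 1500 UMIs *Cd82* was at 0.38 (adjusted p = 0.456) and not called either. *Cd53* differed by 0.26 (SE 0.13, adjusted p = 0.16). *Cd63* was above adult at 1 day and higher again at 3 weeks, whereas the other 5 members called higher at 3 weeks than at 1 day were below adult at 1 day.

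The summed level of the 7 transcripts in CPM was lower in vitro and in slices of 1 day and 1 week than in adult, but the sum of UMIs per cell was not. In CPM it was 10784 and 12186 CPM in adult, 4361 and 4600 in vitro, 4877 and 4560 in slices of 1 day, 5733 and 6202 in slices of 1 week, and 11352 and 10797 in slices of 3 weeks. In UMIs per cell the sum was 38.8 and 26.8 in adult, 56.2 and 61.1 in vitro, 35.9 and 43.6 in slices of 1 day, 39.2 and 39.7 in slices of 1 week, and 76.1 and 61.97 in slices of 3 weeks. At 3 weeks the CPM sum in slices overlapped that in adult, but the share of each member in it, except *Cd151*, did not. A UMI marks a 3' end and is not scaled by length, so the shares below are shares of counted molecules. *Cd81* made up 49.8% and 53.9% of the sum in adult, 13.4% and 10.7% in vitro, and 36.5% and 34.7% in slices at 3 weeks. *Cd63* made up 7.29% and 6.94% in adult, 60.4% and 62.7% in vitro, and 25.6% and 25.0% in slices at 3 weeks. The ratio of *Cd63* to *Cd81* within a library, which no scaling between libraries can alter, was 0.147 and 0.129 in adult, 4.50 and 5.89 in vitro, 1.47 and 1.83 in slices of 1 day, 1.36 and 1.40 in slices of 1 week, and 0.701 and 0.719 in slices of 3 weeks.

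**Figure D3:**
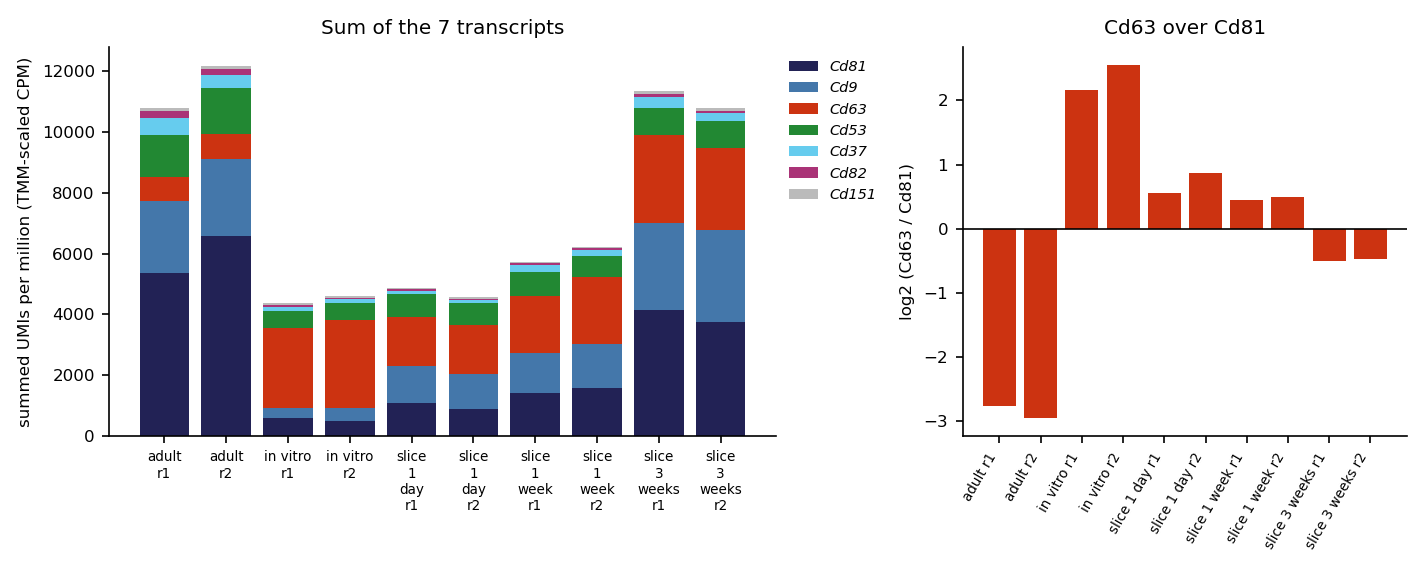
Left, sum of the 7 transcripts in each library in CPM, split by gene; right, log2 of the ratio of *Cd63* to *Cd81* in the same libraries (r1 and r2 are replicates 1 and 2). The sum is 4361 and 4600 in vitro and 11352 and 10797 in slices at 3 weeks, and the ratio exceeds 1 in vitro and in slices at 1 day and 1 week only.

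Counts per cell gave a different picture for some members, because cells of different groups yielded different numbers of UMIs. *Cd63* reached 33.9 and 38.4 UMIs per cell in vitro against 2.83 and 1.86 in adult, and *Cd81* reached 7.53 and 6.51 against 19.3 and 14.5. On this unscaled measure the median gene was 2.04 higher in vitro on the log2 scale, and *Cd37*, *Cd53*, *Cd82* and *Cd151* were above adult in vitro, *Cd53* and *Cd151* past the test. Relative to that median, *Cd63* was 1.91 higher and the other 6 were 0.81 to 3.30 lower. Fewer reads per cell and less RNA per cell cannot be told apart in these counts.

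The share of cells with at least 1 UMI was compared after thinning every cell to 1500 UMIs. *Cd81* was found in 99.91% and 99.96% of adult cells, 56.1% and 45.7% of in vitro cells, and 95.5% and 95.1% of slice 3 weeks cells, where all UMIs gave 100% and 99.9%, 98.1% and 96.7%, and 99.1% and 98.96%. *Cd9* was found in 96.0% and 97.3% of adult, 32.2% and 37.8% of in vitro, and 92.6% and 93.4% of slice 3 weeks cells (all UMIs: 99.2% and 97.1%, 85.7% and 90.3%, and 98.9% and 98.6%). *Cd63* ran the other way, from 65.7% and 66.5% of adult cells to 93.4% and 94.9% of in vitro and 93.5% and 90.9% of slice 3 weeks cells (all UMIs: 84.6% and 70.6%, 100% and 99.9%, and 99.8% and 98.0%). In the cells marked as neutrophils in slices at 1 day (over 2% of UMIs in neutrophil markers), *Cd81* was found in 20% and 23.6% at the same depth, and in 37.5% (9 of 24) of those in slice 1 week replicate 1. These cells come from other libraries and give no background level for the in vitro libraries. Exact 95% intervals of the in vitro shares of *Cd81* were 54.1% to 58.1% and 43.8% to 47.6%. Thinning kept 3521 of 3799 and 2671 of 3527 adult cells and all in vitro and slice 3 weeks cells.

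*Gpnmb*, a lysosomal glycoprotein of responding macrophages, had the level most like that of *Cd63* over the 10 libraries (Pearson r = 0.983, of 3916 genes compared, no test), followed by *Htatip2* (0.981) and *Gm1673* (0.970). Cells of a library were also divided by whether they held a *Gpnmb* UMI after thinning, a gene chosen with earlier results of these data known. In slices at 3 weeks 156 of 1153 and 313 of 3740 cells held *Gpnmb*, and their *Cd63* was 3692 and 3382 CPM against 2552 and 2356 in the other cells (log2 ratio 0.53 and 0.52). Their *Cd81* was lower in both libraries, at 2675 and 2488 against 4316 and 3736 (log2 ratio -0.69 and -0.59). In vitro, where 34.6% and 46.9% of cells held *Gpnmb*, the same signs were seen with smaller sizes for *Cd63* (0.26 and 0.24) and *Cd81* (-0.47 and -0.39). *Cd9*, *Cd37* and *Cd53* did not keep 1 sign over these 4 libraries. *Gpnmb* was in 0 of 3799 and 0 of 3527 adult cells at full depth, with exact 95% upper limits of 0.0971% and 0.104% on cells with a UMI at median depths of 3257 and 1858 UMIs, which do not limit the cells that express it, so adult cells could not be divided. Cells of 1 library are not replicates, and these within-library differences are given without a test. In slice 1 day replicate 2, where 27 cells held *Gpnmb*, *Cd63* was 3136 against 1626 (log2 ratio 0.95), while *Cd81* differed by -0.24 at this depth and by 0.25 with cells thinned to 1000 UMIs. The neutrophil-marked cells of this library (110 cells) were not left out of the division. Their *Cd63* at full depth was 719.5 CPM against 1736 in the other cells.

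Cells with the cell cycle transcript *Mki67* showed less *Cd63* than the other cells of their library. In slices at 3 weeks *Cd63* was 1667 and 1605 CPM in the 40 and 113 cells with *Mki67* against 2743 and 2468 in the rest (log2 ratio -0.72 and -0.62). In vitro it was 1333 and 1765 in 51 and 88 cells against 2378 and 2594 (log2 ratio -0.83 and -0.56). Cells with *Top2a*, another cell cycle transcript, gave -0.63 and -0.57 in slices at 3 weeks and -0.37 and -0.50 in vitro. *Cd81* differed by 0.33 or less in size in these 4 libraries. In slice 1 day replicate 2, the other library with enough such cells, *Cd63* differed by -0.28 with *Mki67* and by 0.03 with *Top2a*, the latter being -0.39 with cells thinned to 1000 UMIs and -0.22 at full depth. The neutrophil-marked cells of that library were not left out here either.

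**Figure D4:**
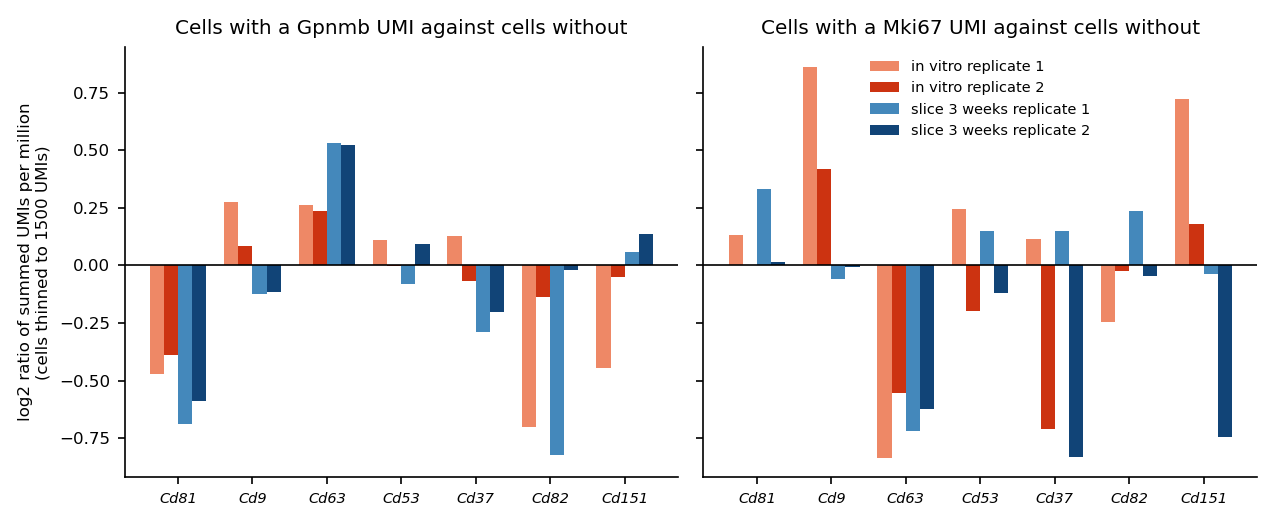
Log2 ratio of each transcript's CPM between cells with and without a *Gpnmb* UMI (left) or an *Mki67* UMI (right), within each of 4 libraries after thinning to 1500 UMIs per cell. *Cd63* is above 0 with *Gpnmb* (0.24 to 0.53) and below 0 with *Mki67* (-0.83 to -0.56) in all 4 libraries, while *Cd81* is below 0 with *Gpnmb* (-0.69 to -0.39).

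The neutrophil-marked cells held less *Cd81* than the other cells of their libraries. They numbered 68 and 110 in the slice 1 day libraries and 24 and 1 in the slice 1 week libraries, and 0 elsewhere, at a limit of 2% chosen after the data were seen. At a limit of 0.5% they would number 73 and 313 in slices of 1 day and 113 (of 148 cells) and 1 in slices of 1 week, so many of the other cells compared with them also held neutrophil transcripts. Their *Cd81* was 216 and 207 CPM at 1 day against 1186 and 964 in the other cells of the library, and 284 against 1467 in slice 1 week replicate 1. Their *Cd63* was also lower in these 3 libraries (log2 ratio -0.30, -1.27 and -1.45). *Cd37* and *Cd82* were higher in them at 1 day, *Cd37* at 320 and 192 against 104 and 86.0, but *Cd37* was lower in them in slice 1 week replicate 1, at 142 against 236. *Cd9* went both ways, with log2 ratios of 0.92, -0.12 and -0.68 in these 3 libraries. In an alternative chosen after the data were seen, these cells and other cells over 2% in the markers of another type were left out. The perivascular macrophage and red cell lists were not part of this filter. With it, 7, 7 and 5 members were called in slices at 1 day, 1 week and 3 weeks against adult, and the numbers were the same at 0.5%. In vitro, 196 and 181 cells over 0.5% in the perivascular macrophage list thus stayed in.

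The genes whose levels were most like each of the other members were named by the same measure, over 10 libraries that share their group structure. *Cd81* was followed most closely by *Iffo1* (0.993), *Tnfrsf21* (0.980) and *Emc3* (0.978), and *Cd82* by *Clcn4* (0.992), *Snn* (0.986) and *Scamp2* (0.986). *Cd9* was followed by *Slamf9* (0.980), *Sgk1* (0.978) and *Pdk1* (0.974), and *Cd37* by *Fam3a* (0.980), *Ptgs1* (0.977) and *Inpp5d* (0.972). *Cd53* was followed by *Slc50a1* (0.977), *Ppcdc* (0.977) and *Dnm2* (0.976), and *Cd151* by *Alg1* (0.945), *Tmx2* (0.944) and *Emc7* (0.934). Among the members themselves r ran from 0.916 for *Cd81* with *Cd9* and with *Cd53* to -0.809 for *Cd63* with *Cd53*, and *Cd63* was negative with each of the other 6.

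Of 24 further tetraspanin genes, 16 were tested. In vitro, 10 of the 16 were lower than adult and 2 higher (28.5% and 22.4% of all genes tested), with a median of -1.65 beside -0.11 over all genes. In slices at 3 weeks 6 were lower and 2 higher (17.5% and 17.9% of all genes tested), with a median of -0.70 beside -0.03. *Upk1b*, a uroplakin, stood at 133 and 155 CPM in adult and at 0 UMIs in both in vitro libraries, which makes adult at least 3139-fold higher (floor of 3 counts over the group). In slices *Upk1b* reached at most 2.10. *Tspan7* stood at 144 and 134 in adult, 1.80 and 1.23 in vitro, and 46.2 and 26.2 in slices at 3 weeks (in vitro against adult -6.51, SE 0.36, adjusted p = 2.97e-07). *Tspan13* fell by 3.71 in vitro and by 3.77 in slices at 3 weeks, and unlike *Cd81* it did not differ between the 2 culture systems by the test.

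*Tspan17*, a partner of the protease ADAM10, rose most among the further tetraspanins in vitro. It stood at 2.27 and 3.35 in adult, 46.5 and 61.4 in vitro, and 12.03 and 8.66 in slices at 3 weeks (log2 4.30 and 1.89 against adult, adjusted p = 5.77e-07 and 4.13e-04). *Tspan14*, another ADAM10 partner, fell by 1.77 in vitro and by 0.74 in slices at 3 weeks. *Tspan3* fell by 0.92 in vitro (adjusted p = 7.63e-04), *Tspan32* by 3.26 and *Tspan33* by 1.25, and none of these was called in slices at 3 weeks. *Tspan5* was higher than adult in slices at 3 weeks (log2 1.01, adjusted p = 0.0239) and was at -0.04 in vitro. *Tspan4* and *Tspan31* were called in neither, at 0.12 and -0.45 in vitro.

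**Figure D5:**
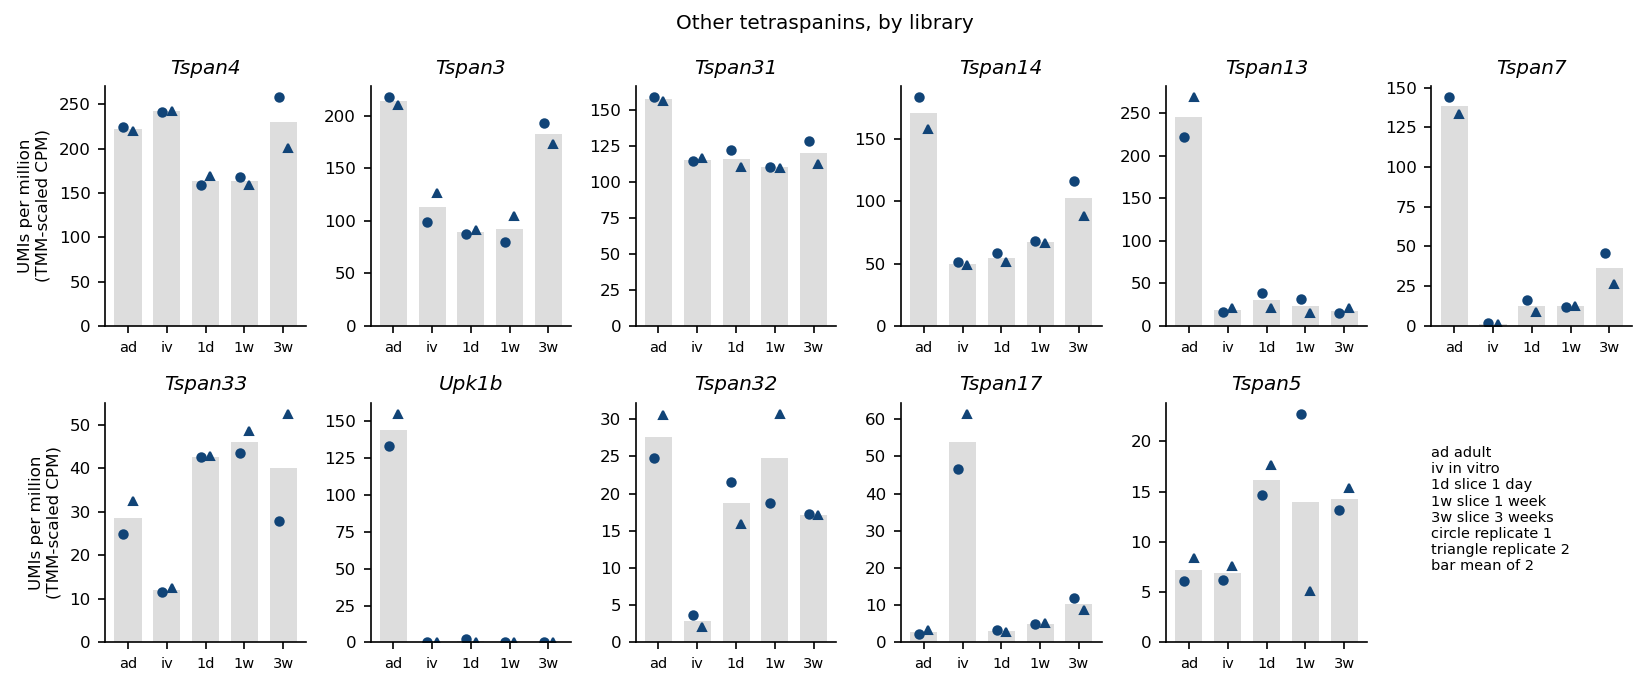
Level of the 11 further tetraspanins with a mean log2 level of at least 3, in CPM (each panel has its own linear axis from 0); points are libraries and bars the mean of 2. *Upk1b* is at 133 and 155 in adult and at most 2.10 in the cultured libraries, and *Tspan17* is highest in vitro (46.5 and 61.4).

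Among 15 tested genes of tetraspanin partners at the membrane, 4 were higher and 6 lower in vitro than in adult (22.4% and 28.5% of all genes tested), and 6 were higher and 1 lower in slices at 3 weeks (17.9% and 17.5%). The number higher in vitro was near this background, and the number lower at 3 weeks was under it. *Cd36*, a scavenger receptor that associates with CD9 and CD81, stood at 0.366 and 0.258 CPM in adult, 186.6 and 282.1 in vitro, and 10.5 and 9.04 in slices at 3 weeks (log2 9.45 in vitro, SE 0.32, adjusted p = 2.46e-08). *Cd44*, the hyaluronan receptor, rose by 7.39 in vitro and by 5.49 in slices at 3 weeks. The sizes of these rises rest on few adult UMIs, 7 for *Cd36* and 8 for *Cd44*. *Itgal*, an integrin chain, had 77 UMIs in slices at 3 weeks against 1 in adult, a ratio of 56.5 (95% exact counting interval 9.84 to 2260). The lowest called partners in vitro were *Vcam1* (-3.45) and *Hbegf* (-1.97), and *Vcam1* was also lower in slices at 3 weeks (-1.69, adjusted p = 0.00372).

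Of 18 tested genes of endosomes and extracellular vesicles, the compartment of CD63, 8 were higher and 2 lower in vitro (22.4% and 28.5% of all genes tested), with a median of 0.34 beside -0.11 over all genes. *Pikfyve*, a lipid kinase of late endosomes, rose by 1.59 and *Chmp4b*, a subunit of the ESCRT-III scission complex, by 1.53 (adjusted p = 9.34e-05 and 2.70e-05). *Sdcbp*, singled out after its values were seen because it encodes the CD63-binding adaptor syntenin-1, stood at 373 and 354 in adult, 1064 and 1013 in vitro, and 558 and 522 in slices at 3 weeks. *Rab27a*, a small GTPase of vesicle release, fell by 3.17 in vitro (SE 0.27, adjusted p = 4.84e-06) and *Rab35* by 0.60. In slices at 3 weeks 3 were higher and 2 lower, no more than the background of 17.9% and 17.5% of all genes tested, and the highest were the lysosomal *Cd68* (0.97, adjusted p = 5.22e-04) and *Pikfyve* (0.89). *Rab35* was at -0.82 there, and *Smpd3*, the neutral sphingomyelinase, had 2 UMIs against 10 in adult (ratio 0.147, 95% exact counting interval 0.0156 to 0.688).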

How the data were processed

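Single cell 3' libraries (10x Genomics, kit v2) of 10 samples were aligned to mm10 with Cell Ranger 1.3.0, per the submitters' processing notes. The authors deposited UMI counts per gene and cell, not normalized, as tables of 18292 symbols and 19637 barcodes in all. Conditions were also combined with the aggregate step of Cell Ranger, which can thin reads to a common depth; whether the tables precede that step is not given in the sources used here, so depths and UMIs per cell may be affected. Kept cells held at least 400 genes, at most 30000 UMIs and at most 5% mitochondrial UMIs. Rows of a repeated symbol (13 symbols) were added, and genes absent from a table counted 0. UMIs were summed per library and tested with edgeR 4.0.16 (TMM factors, filterByExpr with 10 counts, 1 quasi-likelihood fit of all 5 groups). SE is the log2 fold change over the square root of F. The biological coefficient of variation was 18.3%. Calls needed a Benjamini-Hochberg adjusted p under 0.05 and a 1.5-fold change. Replicates were separate samples by label, and p-values measure the spread between them. Replicates of each group differed beyond counting noise. No doublet caller was run, and library pairs shared at most 21 barcodes. Intervals cover counting error only. Members and gene lists were chosen with earlier results of these data known; other tetraspanins with a mean log2 level of at least 3, and the 2 highest and 2 lowest called genes of the partner and endosome lists, were named. Alternatives used other scalings, filters, cells, DESeq2 1.42.0, a study label term, a replicate block and each library left out.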

Additional observations from a re-analysis of the deposited data

How the results depend on the processing

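Of the member log2 fold changes under alternative settings, 910 kept direction and call, 45 lost the call, 1 gained it with its direction kept (*Cd9* in slices at 3 weeks against adult, 1.38 in UMIs per cell) and 45 changed sign. In UMIs per cell 5 of the changed signs were past the call limits, *Cd151* and *Cd53* in vitro and *Cd151* at 1 day (called lower in the reported fit), and *Cd151* at 3 weeks against adult and *Cd63* between the culture systems (not called there). Counts of members called stayed within 1.5 times of the reported count in 125 of the alternatives and moved in 18. They were unchanged with the replicate block (7, 7, 7, 5, 5 and 6 in the order of the comparisons), with the crossed block and with the study label as a term. Replicate numbers are shared numbers only, since the replicate differences of pairs of groups correlated at -0.11 to 0.09. UMIs per cell, unscaled for depth, gave 4 members called in vitro, 1 in slices at 1 week, 3 in slices at 3 weeks, 3 between the culture systems and 2 between 3 weeks and 1 day. On that scale the signs turned for *Cd151* (1.22), *Cd37* (0.28), *Cd53* (0.79) and *Cd82* (0.17) in vitro against adult, *Cd151* (0.77), *Cd53* (0.58) and *Cd9* (0.49) at 1 day, *Cd53* (0.21) and *Cd9* (0.39) at 1 week, *Cd151* (1.10), *Cd37* (0.50), *Cd53* (0.40) and *Cd81* (0.54) at 3 weeks, *Cd151* (0.13), *Cd53* (0.39), *Cd63* (1.05) and *Cd82* (0.59) between the culture systems, and *Cd53* (-0.18) from 1 day to 3 weeks. On that scale the median of all genes lay at 2.04 in vitro, 1.49 at 1 day, 1.10 at 1 week and 1.05 at 3 weeks against adult, at 0.97 between the culture systems and at -0.41 from 1 day to 3 weeks, where the reported fit had -0.11 to 0.05.

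Slices at 3 weeks against adult had 3 members called under relative log expression factors, without the filter, with all barcodes, with cells thinned to 1500 UMIs, with only both groups fitted, without the slice 1 week libraries (added after the data were seen) and by DESeq2, where *Cd37* and *Cd81* fell short of the limits. *Cd151*, near 0 there, was at 0.030, 0.063, 0.038, 0.175, 0.058, 0.039 and 0.028 in that order, and *Cd63* between the culture systems, also near 0, at 0.010, 0.079, 0.070, 0.025, 0.046 and 0.010 (leaving out all barcodes) and 0.014 without cells over 0.5% in markers of other types. This marker filter did not use the perivascular macrophage and red cell lists, so in vitro cells high in the former stayed in. With a library left out, members called ranged from 7 to 7 in vitro and at 1 day, 6 to 7 at 1 week, 3 to 5 at 3 weeks, 4 to 5 between the culture systems and 4 to 6 from 1 day to 3 weeks (4 without slice 1 day replicate 2). *Cd151* then ran from -0.032 to 0.115 and *Cd63* from -0.022 to 0.121. A group left with 1 library is taken to vary like the others. Scaling by library size alone made 29.9% rather than 44% of the genes called in vitro higher ones. Of the mean log2 ratios of cell divisions in vitro and in slices at 3 weeks, taken again at 1000 UMIs and at full depth, 48 stayed within the spread of both libraries, 31 moved by more, some of them across 0, and 5 turned sign in both libraries. The 5 were *Cd81* with *Mki67* in vitro at full depth (-0.08), *Cd81* and *Cd151* with *Top2a* in vitro at 1000 UMIs (-0.13 and 0.68), and *Cd151* with *Gpnmb* in slices at 3 weeks at 1000 UMIs (-0.67) and at full depth (-0.22). In these 4 libraries *Cd63* with each of the 3 genes and *Cd81* with *Gpnmb* kept their signs at every depth, and in slice 1 day replicate 2 *Cd81* with *Gpnmb* was at 0.25 at 1000 UMIs. The cause was not tested. Few UMIs limit *Cd151* and *Cd82* at 1 week (11 and 26 in replicate 2).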
